A study of Rattus norvegicus with 50 samples.

Results

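The mitochondrial respiratory chain genes were followed through rat liver during galactosamine injury, nevirapine dosing and both together. They were taken by symbol from the array's probe annotation as all names starting with Nduf, Uqcr or Atp5, all names of Cox4 to Cox8 followed by a letter, and Sdha, Sdhb, Sdhc and Sdhd. This gave 86 of the 14217 genes measured, each read by the probe set with the highest mean over all 50 arrays. Sorted by symbol, the 86 comprised 6 core and 29 accessory subunits of complex I, 6 complex I assembly factors, 4 subunits of complex II and 7 of complex III. Ndufa4, which despite its name is described as a complex IV subunit, is counted with complex I throughout. Complex IV gave 10 subunits used in most tissues and 6 isoforms known from muscle, heart, lung or testis, complex V gave 16, and 2 further symbols were Cox6c-ps1, a pseudogene, and Ndufa4l2, a hypoxia-induced relative of Ndufa4. The rule also takes in proteins that regulate or help to build the chain without being part of it: the ATP synthase inhibitor Atp5if1 and the assembly factors named Ndufaf.

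Livers came from 50 female Brown Norway rats (Bn/Crl, RT1n haplotype) aged 9 to 11 weeks, with 1 array per rat in 17 groups of 3, except galactosamine at 48 h with 2. D-galactosamine, an amino sugar that depletes uridine nucleotides in hepatocytes, was given once into the peritoneum at 750 mg/kg. Nevirapine, an oral inhibitor of HIV reverse transcriptase that the liver metabolises, was given at 150 mg/kg on day 1, at 100 mg/kg for 2 days and, after 1 day without drug, at 75 mg/kg. The study was set up to examine the 8 days over which the combination produced fibrosis while neither drug alone did. Vehicle rats received a sham injection and sham oral doses and were taken at 3 h, 24 h, 48 h, 8 d and 15 d. Galactosamine rats received the drug and sham oral doses and were taken at 3 h, 24 h, 48 h and 8 d after the injection. Nevirapine rats received the oral drug and a sham injection. Those labelled 3 h, 24 h and 48 h were timed from the first dose, and those labelled 15 d were taken at the 16th dose. Combination rats received nevirapine for 7 days, then galactosamine with nevirapine continued, and were taken at 3 h, 24 h, 48 h and 8 d after the injection. The labels place the nevirapine 15 d rats 8 d after the sham injection and the vehicle 15 d rats 15 d after it, so these groups differ in the timing of the injection as well as in drug. Combination rats at 8 d, at the 16th oral dose, were compared with the 15 d vehicle rats.

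In the inner mitochondrial membrane, complex I (most of the Nduf subunits) takes electrons from NADH. Complex II (Sdha to Sdhd, succinate dehydrogenase, which is also a citric acid cycle enzyme) takes them from succinate. Coenzyme Q carries the electrons to complex III (Uqcr subunits), cytochrome c carries them to complex IV (Cox subunits), and oxygen is the final acceptor. The proton gradient made by complexes I, III and IV drives ATP synthase, complex V (Atp5 subunits), and hepatocytes, which are rich in mitochondria, use the ATP for urea, glucose and bile acid synthesis. Most subunits are encoded in the nucleus, and many of their promoters carry sites for the factors NRF1, GABPA (an ETS factor, also called NRF2), ERR alpha and YY1. A small set of core subunits is encoded in mitochondrial DNA, and no symbol of that set was matched among the probes, so these are not analysed here.

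The promoters are shown first, because members that stand close together in function could share them. RefSeq windows of 300 bases (GRCr8, 250 before and 50 after the start) were matched for 78 of the 86 members and searched on both strands for 4 motifs: NRF1 as GCGCANGCG, GABPA/ETS as CCGGAAG, ERR alpha as TNAAGGTCA and YY1 as AAGATGGCG. An NRF1 match can be read on both strands of the same bases, and the GABPA/ETS and YY1 motifs can overlap at AAG. At least 1 of the 4 motifs was present in 43 of the 78 windows (55.1%), against 15.6% of all 33469 RefSeq windows. NRF1 was matched in 19 (24.4%, against 5.80%), GABPA/ETS in 22 (28.2%, against 8.75%), YY1 in 11 (14.1%, against 1.73%) and ERR alpha in 3 (3.85%, against 1.2%). Among the members that were lower at 24 h of galactosamine, 30 of 55 windows (54.5%) held a motif, and among the other members 13 of 23 (56.5%). Among those lower at 8 d of the combination the figures were 25 of 42 (59.5%) and 18 of 36 (50.0%). These matches are descriptions of letters in a window, and a window with no match says only that these letters are not in it. The 200 bases before the start are given below, 5′ to 3′ on the gene's own strand with motif matches in capitals, for 4 members called lower and 2 called higher at 24 h of galactosamine. They are Ndufs1 (chr9:72073606-72073805, minus strand, GABPA/ETS), Sdha (chr1:30764353-30764552, plus, NRF1 at 2 places), Uqcrc2 (chr1:184599040-184599239, plus, GABPA/ETS at 2 places), Atp5pf (chr11:37375102-37375301, minus, YY1 and then GABPA/ETS), Ndufaf4 (chr5:43401595-43401794, plus, NRF1 read on both strands) and Atp5if1 (chr5:150026678-150026877, minus, no match).
Ndufs1: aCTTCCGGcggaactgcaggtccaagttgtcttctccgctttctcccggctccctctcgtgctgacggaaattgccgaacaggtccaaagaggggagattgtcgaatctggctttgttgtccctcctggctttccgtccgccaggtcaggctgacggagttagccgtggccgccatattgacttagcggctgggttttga
Sdha: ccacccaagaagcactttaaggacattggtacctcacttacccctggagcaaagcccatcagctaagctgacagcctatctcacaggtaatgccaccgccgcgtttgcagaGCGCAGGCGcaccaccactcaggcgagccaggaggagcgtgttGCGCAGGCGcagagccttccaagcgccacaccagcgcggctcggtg
Uqcrc2: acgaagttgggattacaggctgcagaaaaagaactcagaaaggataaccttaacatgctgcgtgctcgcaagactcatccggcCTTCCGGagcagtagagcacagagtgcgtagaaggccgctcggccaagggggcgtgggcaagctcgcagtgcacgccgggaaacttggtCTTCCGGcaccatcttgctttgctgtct
Atp5pf: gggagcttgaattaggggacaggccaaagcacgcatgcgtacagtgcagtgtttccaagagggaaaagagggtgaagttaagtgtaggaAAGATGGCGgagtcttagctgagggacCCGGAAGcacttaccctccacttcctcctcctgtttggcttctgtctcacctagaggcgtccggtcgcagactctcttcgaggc
Ndufaf4: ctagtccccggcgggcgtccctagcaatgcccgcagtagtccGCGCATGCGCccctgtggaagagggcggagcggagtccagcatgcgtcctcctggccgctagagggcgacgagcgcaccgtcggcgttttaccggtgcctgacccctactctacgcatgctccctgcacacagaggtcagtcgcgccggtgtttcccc
Atp5if1: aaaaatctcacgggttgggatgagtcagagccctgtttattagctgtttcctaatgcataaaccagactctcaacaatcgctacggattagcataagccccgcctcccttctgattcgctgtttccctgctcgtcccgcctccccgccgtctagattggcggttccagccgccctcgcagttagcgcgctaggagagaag

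All values below are log2 signals on one common scale, so a difference of 1 is a 2-fold difference on that scale, and changes are group means less the vehicle mean ± SE from limma. A gene was called when its p, adjusted by Benjamini-Hochberg over all 14217 genes, was under 0.05. Array medians lay between 4.95 and 5.09, the lowest mean correlation of an array with its own group was 0.979 (rat 63, combination 3 h), and the difference between the 3′ and 5′ probe sets of GAPDH, a measure of RNA integrity, lay between 0.01 and 0.86. The highest of 27 bacterial control probe sets, 4.37, was taken as background. Hepatocyte markers were strong in every group (9 of 10 measured, none below background), and all 4 measured skeletal muscle markers were below background. Macrophage markers (9 of 10 measured) averaged 6.91 to 6.93 over the vehicle rats at 24 h, with Itgam below background. They averaged 8.13 to 8.30 at 24 h and 8.95 to 9.00 at 48 h of galactosamine. Their part in the changes below was not tested. In whole liver, fewer cells of a type and less RNA per cell cannot be told apart, and since nothing in the labels ties rats to litters or cages, the p-values measure the spread between single rats.

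Respiratory chain genes were among the brightest on these arrays. The median member had a mean signal of 10.6 over all rats, against 6.19 for all genes, and 59 members (68.6%) had a mean over 10, against 5.70% of all genes (810 genes). In all, 79 members were above background in every group, and 80 in at least 1. The 6 members below background in every group were Cox4i2, Cox6b2, Cox7a1, Cox7b2 and Cox8b, isoforms known from other tissues, and Ndufa4l2. The isoform pairs of complex IV separated in every rat: Cox6a1, the liver form, lay between 11.05 and 11.73, while Cox6a2, the heart and muscle form, lay between 3.89 and 4.79. Cox6b1 lay between 10.69 and 11.41, and its testis form Cox6b2 between 2.58 and 3.94. Cox4i1 was between 11.69 and 12.34 in all 50 rats, and Cox4i2, the lung form, between 2.96 and 4.04. These probe sets differ in their own brightness, so each pair is given as signal above or at background, not as a ratio.

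The members moved most at 24 h of galactosamine and, more shallowly, at the end of the nevirapine courses. Each rat was summarised by the median, over the 86 members, of its difference from the mean of all vehicle rats. The 3 galactosamine rats at 24 h stood at -0.42, -0.18 and -0.53. The 3 combination rats at 24 h stood at -0.26, -0.13 and -0.15, the combination rats at 8 d at -0.32, -0.24 and -0.17, and the nevirapine rats at 15 d at -0.13, -0.19 and -0.15. The vehicle rats lay between -0.12 and 0.16, so every rat of these 4 groups was below every vehicle rat. At 8 d after galactosamine alone the medians were -0.10, -0.07 and -0.09, inside the vehicle range.

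**Figure D1:**
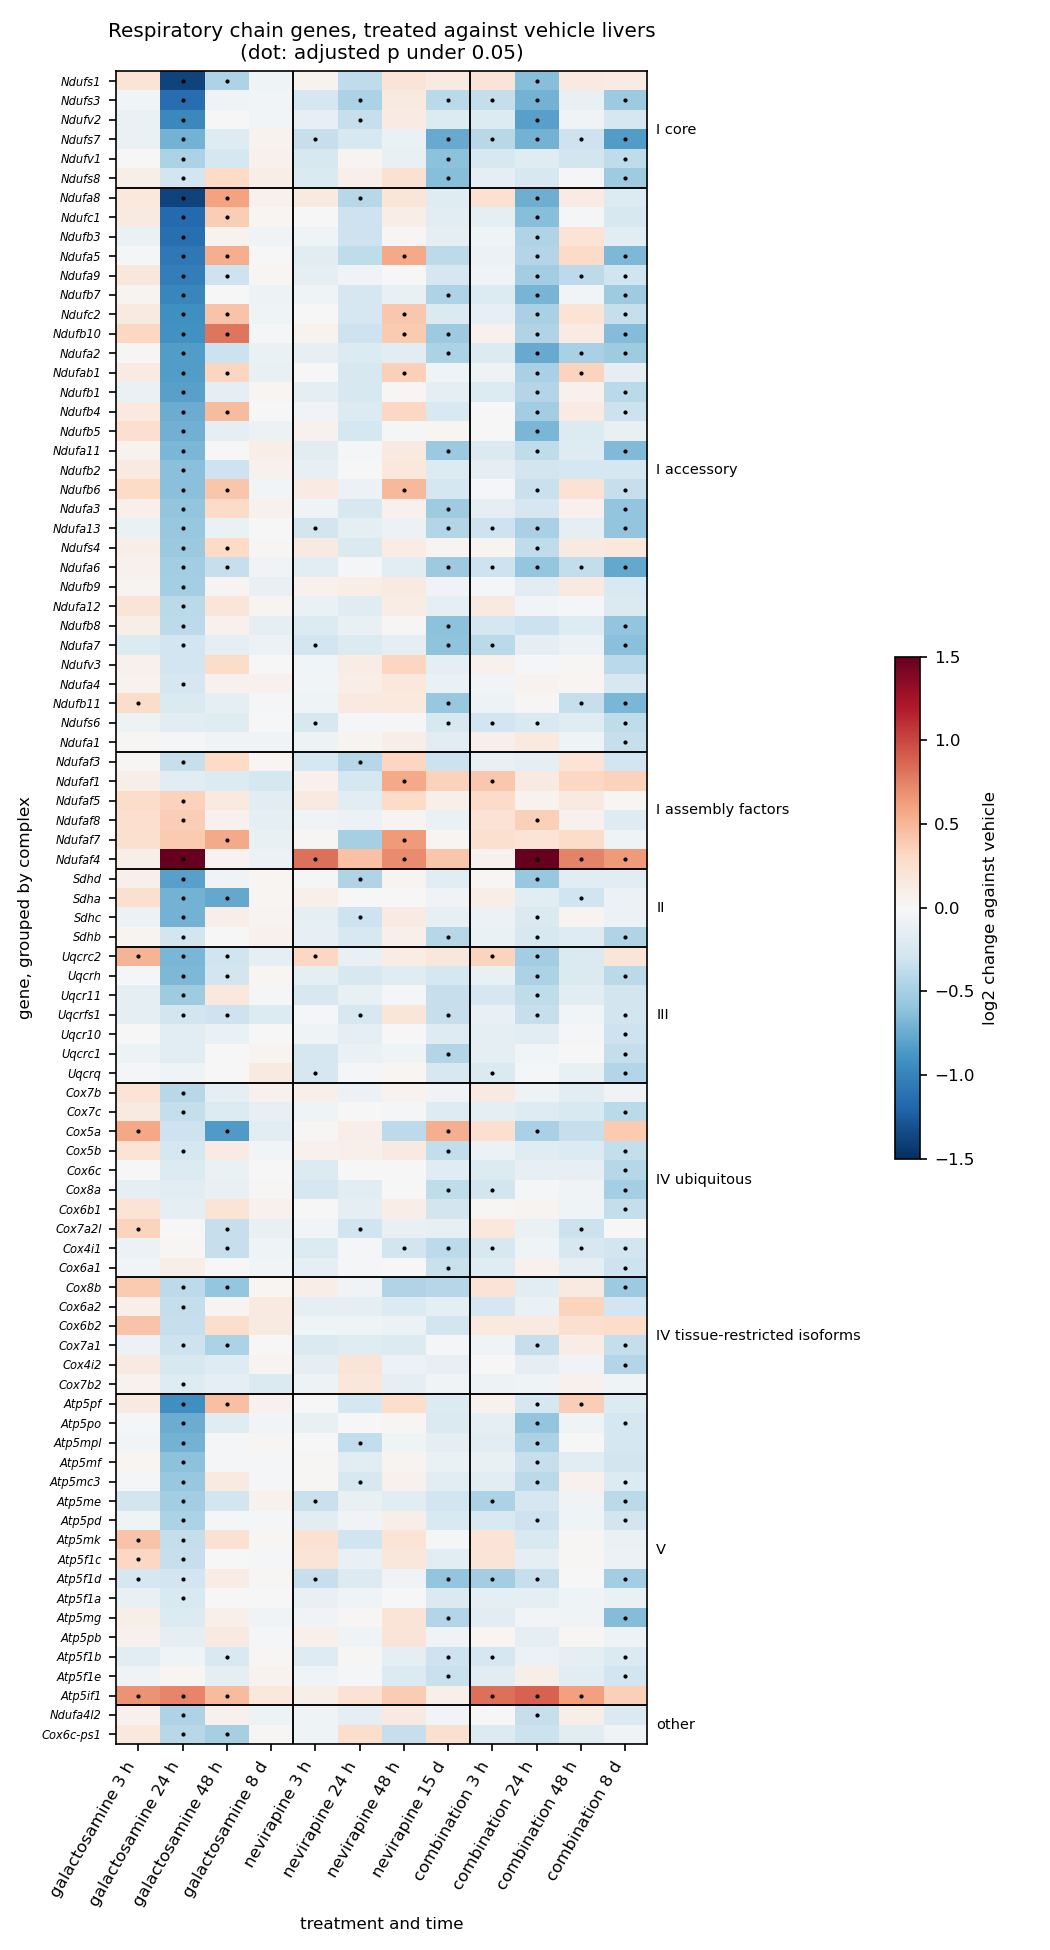
Log2 change of each of the 86 members (rows, grouped by complex) in the 12 comparisons with vehicle (columns); colour runs from blue (lower) to red (higher) and is clipped at 1.5 either way, and a dot marks a gene called at an adjusted p under 0.05. Lower values fill the complex I rows at 24 h of galactosamine (31 of 35 subunits called lower), and no gene has a dot at 8 d of galactosamine.

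**Figure D2:**
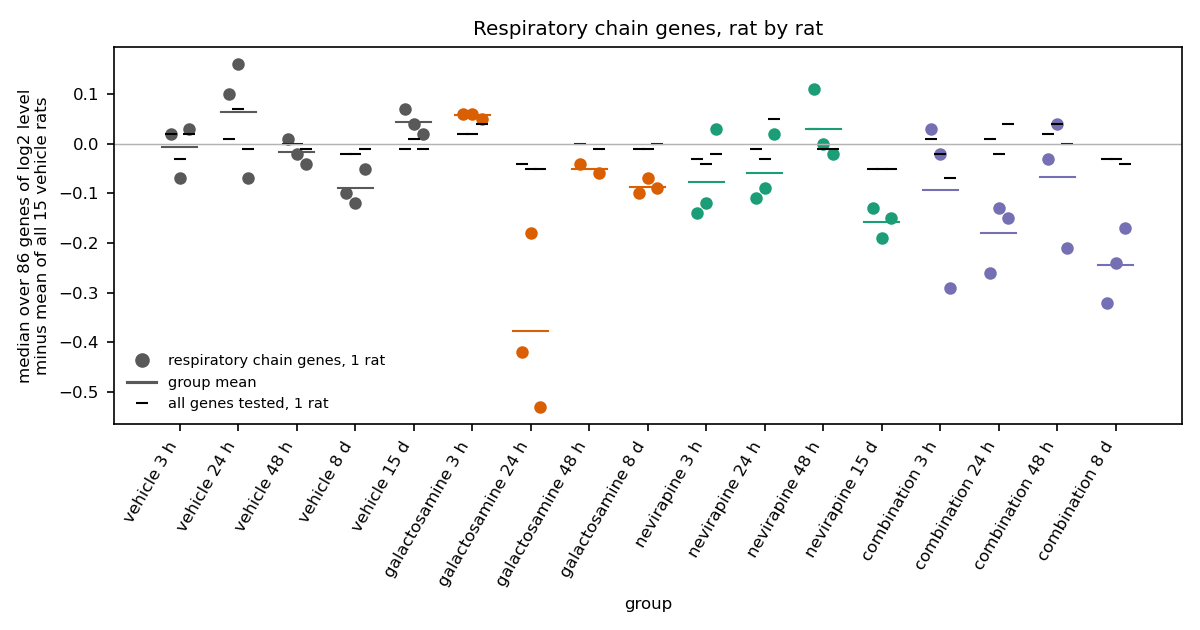
Median over the 86 members of each rat's log2 difference from the mean of all vehicle rats; each point is 1 rat, grouped by treatment and time, a line marks the group mean, and a black dash marks the same median over all genes tested. The 24 h galactosamine rats (-0.42, -0.18 and -0.53) and the 8 d combination rats (-0.32, -0.24 and -0.17) lie below every vehicle rat.

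At 3 h after galactosamine few members had moved. Of the 86, 7 rose (8.14%, against 14.9% of all genes) and 1 fell (1.16%, against 18%), with a median change of 0.07. The largest rises were of Atp5if1, which blocks reverse action of ATP synthase (0.67 ± 0.16, adjusted p = 0.00119), Cox5a, a matrix-side subunit of complex IV (0.58 ± 0.16, adjusted p = 0.00355), and Uqcrc2, a core protein of complex III (0.51 ± 0.10, adjusted p = 8.52e-05). Cox5a was read by a dim probe set (mean 6.13), and another probe set that lists it was left out for carrying several symbols. Uqcrc2 stood at 10.65, 10.52 and 10.71 in the vehicle rats and at 11.10, 11.14 and 11.16 in the galactosamine rats, with no overlap. The single fall was that of Atp5f1d, the delta subunit of the ATP synthase rotor (-0.25 ± 0.09, adjusted p = 0.0271). The count is small and moves with single rats: without rat 16, rat 1 or rat 2 it was 5 in place of 8. Cyclic loess scaling gave 7 higher and 5 lower.

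At 24 h after galactosamine the chain was broadly lower. Of the 86 members, 60 fell (69.8%, against 28.5% of all genes) and 4 rose (4.65%, against 30.2%), with a median change of -0.39 beside -0.07 for all genes. In all, 77 of the 86 changes were below 0, from -1.39 to 2.20, and 44 of the 60 lower members did not overlap the vehicle rats (51.2% of members, against 25.8% of all genes). Of all genes called lower, 90.3% did not overlap. Of the 60, 56 were above background. Bright genes as a class were also lower at this time: among the 810 genes with a mean over 10 the median change was -0.39, with 55.3% lower and 20.2% higher, and among the 59 members in that class it was -0.51, with 43 lower.

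Complex I carried the largest falls. All 6 core subunits and 25 of 29 accessory subunits were lower, with medians of -0.84 and -0.63. Ndufs1, the large iron-sulfur subunit that passes electrons along from the flavin site, stood at 9.70, 9.79 and 9.44 in the vehicle rats and at 8.26, 8.05 and 8.46 in the galactosamine rats, 2.61-fold lower (-1.39 ± 0.14, limma adjusted p = 2.15e-11). Ndufa8, an accessory subunit on the intermembrane side, went from 10.24, 10.23 and 9.96 to 8.79, 8.64 and 8.84, 2.62-fold lower (-1.39 ± 0.12, adjusted p = 3.28e-13). In both genes the lowest vehicle rat was about 1 log2 unit above the highest treated rat. The other largest falls were of Ndufc1, a small membrane subunit (-1.17 ± 0.12, adjusted p = 5.24e-11), and Ndufs3, a core subunit of the peripheral arm (-1.14 ± 0.12, adjusted p = 6.32e-11).

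The 6 assembly factors named Ndufaf did not fall together: 3 were higher, 1 was lower and 2 were not called. Assembly factors outside the Nduf names, given further below, were more often lower than higher at this time. Ndufaf4, which acts early in building complex I, stood at 7.90, 7.81 and 7.87 in the vehicle rats and at 9.88, 10.14 and 10.17 in the galactosamine rats, 4.59-fold higher (2.20 ± 0.19, adjusted p = 5e-13). It was the largest change of any member in any comparison with vehicle. Ndufaf5 (0.34 ± 0.12, adjusted p = 0.0143) and Ndufaf8 (0.37 ± 0.13, adjusted p = 0.0152), which act together on the core subunit Ndufs7 during assembly, also rose. Ndufaf3, which works in a pair with Ndufaf4, fell (-0.34 ± 0.14, adjusted p = 0.0303), but its change was 0.00 when all vehicle rats served as controls.

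The later complexes were lower to differing degrees. All 4 subunits of complex II fell, with a median of -0.71. Sdhd, a membrane anchor of succinate dehydrogenase, went from 11.40, 11.27 and 11.15 to 10.44, 10.67 and 10.28 (-0.81 ± 0.10, adjusted p = 2.1e-09), and its second probe set gave -1.05. Sdha, the flavin subunit that oxidises succinate, went from 10.56, 10.70 and 10.45 to 9.89, 10.05 and 9.63 (-0.71 ± 0.10). No treated rat reached the lowest vehicle rat in either gene. In complex III 4 of 7 fell, led by Uqcrc2 (10.74, 10.71 and 10.54 to 9.88, 10.27 and 9.77) and by Uqcrh, the hinge protein (-0.67 ± 0.09, adjusted p = 8.46e-08). In complex V 11 of 16 fell, led by the stalk subunits Atp5pf (10.51, 10.56 and 10.23 to 9.39, 9.70 and 9.44, -0.92 ± 0.10, adjusted p = 7.83e-10) and Atp5po (-0.74 ± 0.09, adjusted p = 5.04e-09), while the inhibitor Atp5if1 rose from 7.65, 7.95 and 7.88 to 8.45, 8.50 and 8.71 (0.73 ± 0.16, adjusted p = 0.00018). Complex IV was the exception: 3 of its 10 common subunits fell, with a median of -0.19. Cox4i1, a subunit on which its assembly starts, stood at 12.18, 12.27 and 12.18 in vehicle rats and at 12.29, 12.34 and 12.07 in treated rats, which overlapped. Of the 3 that fell, Cox7b (-0.42 ± 0.13) had a change of 0.04 under cyclic loess.

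Among the galactosamine rats at 24 h, rat 23 lay nearest to the vehicle rats over the members, and rat 24 farthest. The balance of calls depended on scaling and on how the spread was pooled: cyclic loess gave 39 lower and 16 higher (median -0.22), and a fit of these groups alone gave 41 called in place of 64. The GAPDH 3′ to 5′ difference averaged 0.457 in the treated and 0.470 in the vehicle rats at 24 h, and with it as a covariate the counts stayed at 60 lower and 4 higher. Over the hepatocyte markers the rat means ran from 12.67 to 12.78 in treated and from 12.70 to 12.79 in vehicle rats, and 2 of 9 were called higher and 2 lower. Macrophage markers were called higher for 4 of 9, beside 30.2% of all genes. Their summed linear signal, which follows the brightest genes of the list most, was 7550 to 8748 against 1711 to 1764. The part of the macrophage markers in the result was not tested.

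**Figure D3:**
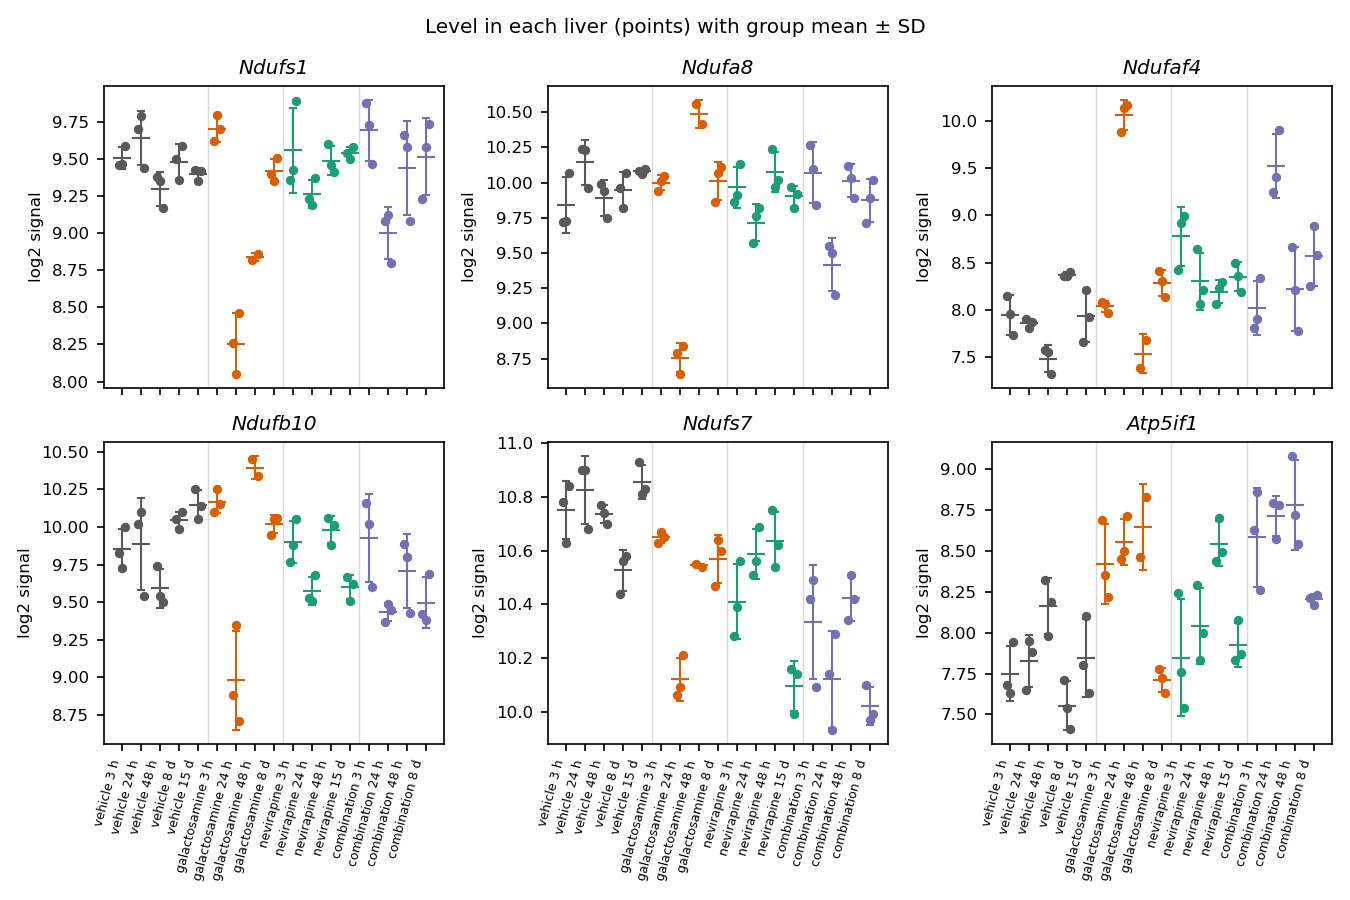
Log2 signal of Ndufs1, Ndufa8, Ndufaf4, Ndufb10, Ndufs7 and Atp5if1 in every rat (points) of the 17 groups, coloured by treatment. Ndufaf4 lies at 9.88 to 10.17 at 24 h of galactosamine and at 9.25 to 9.90 at 24 h of the combination, above every other rat, and Ndufs7 lies at 9.97 to 10.10 in the 8 d combination rats, below every vehicle rat (10.44 to 10.93).

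By 48 h after galactosamine the fall had largely gone and some members were above vehicle. Of the 86, 12 rose (14%, against 24.9% of all genes) and 14 fell (16.3%, against 14.5%), with a median of -0.01. None of these 26 overlapped the vehicle rats, as held for 99.4% of all genes called here with 2 treated rats. Of the 12 that rose, 10 (83.3%) were among the 60 that had been lower at 24 h (16.7% of those), beside 69.8% of all members lower at 24 h. Ndufb10, a membrane-arm subunit, stood at 10.02, 10.10 and 9.54 in vehicle and 8.88, 9.35 and 8.71 in treated rats at 24 h, and at 9.74, 9.54 and 9.50 against 10.45 and 10.34 at 48 h (0.80 ± 0.16, adjusted p = 7.17e-05, 1.74-fold higher). Ndufa8 likewise was 2.62-fold lower at 24 h and 1.51-fold higher at 48 h (10.56 and 10.42 against 9.99, 9.94 and 9.75; 0.60 ± 0.13, adjusted p = 0.000328). The same crossing was seen in Atp5pf (0.45 ± 0.12, adjusted p = 0.00195), with 10.65 and 10.60 against 10.27, 10.09 and 10.15.

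Other members were lower than vehicle at 48 h. Of these 14, 10 (71.4%) had also been lower at 24 h, which is near the 69.8% of all members. Sdha stood at 9.82 and 9.99 against 10.68, 10.65 and 10.68 (-0.77 ± 0.11, adjusted p = 7.52e-07), as low as at 24 h. Ndufs1 stood at 8.82 and 8.86 against 9.38, 9.35 and 9.17 (-0.46 ± 0.15, adjusted p = 0.0151). Complex IV subunits joined them: Cox4i1, which had not been called at 24 h, stood at 11.94 and 11.92 against 12.27, 12.24 and 12.32 (-0.35 ± 0.09, adjusted p = 0.00124), and Cox5a, a dim probe set, at 5.54 and 5.47 against 6.15, 6.59 and 6.30 (-0.85 ± 0.17, adjusted p = 0.000169). Uqcrfs1, the Rieske iron-sulfur protein of complex III, was also lower (-0.31 ± 0.09, adjusted p = 0.0064). Uqcrc2 was called lower on its brighter probe set (-0.30 ± 0.11), while its second probe set gave 0.29, so its direction at 48 h is unsettled. Atp5if1 was called higher (0.48 ± 0.18, adjusted p = 0.0326), with 8.46 and 8.83 against 8.32, 7.98 and 8.19, but the mean of its probe sets, the others of which were near background, gave -0.06. With 2 treated rats the total of 26 fell to 13 without rat 26 and to 12 without rat 27. The GAPDH difference averaged 0.138 in treated and 0.613 in vehicle rats, and with it as a covariate 7 were higher and 13 lower. Macrophage markers were called higher for 9 of 9, and their part was not tested.

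The change between 24 h and 48 h was tested directly, as the 48 h difference from vehicle less the 24 h difference. In this test 40 members rose (46.5%, against 19.3% of all genes) and 2 fell (2.33%, against 17.2%), with a median of 0.39. Among genes with a mean over 10 the median was 0.30 and 41% rose. Complex I subunits gave 25 of 35, complex V 8 of 16, complex III 3 of 7 and complex II 2 of 4. The largest were Ndufa8 (1.99 ± 0.17, adjusted p = 1.78e-11), Ndufb10 (1.71 ± 0.21, adjusted p = 2.43e-08), Atp5pf (1.37 ± 0.16, adjusted p = 6.29e-09) and Ndufs3 (1.09 ± 0.18). The 2 that fell were Ndufaf4 (-2.15 ± 0.28, adjusted p = 9.09e-08), which returned to 7.39 and 7.68 beside 7.58, 7.55 and 7.32 in vehicle, and Cox4i1 (-0.37 ± 0.11, adjusted p = 0.0096). With cyclic loess the split was 27 higher and 11 lower, with a median of 0.14.

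**Figure D4:**
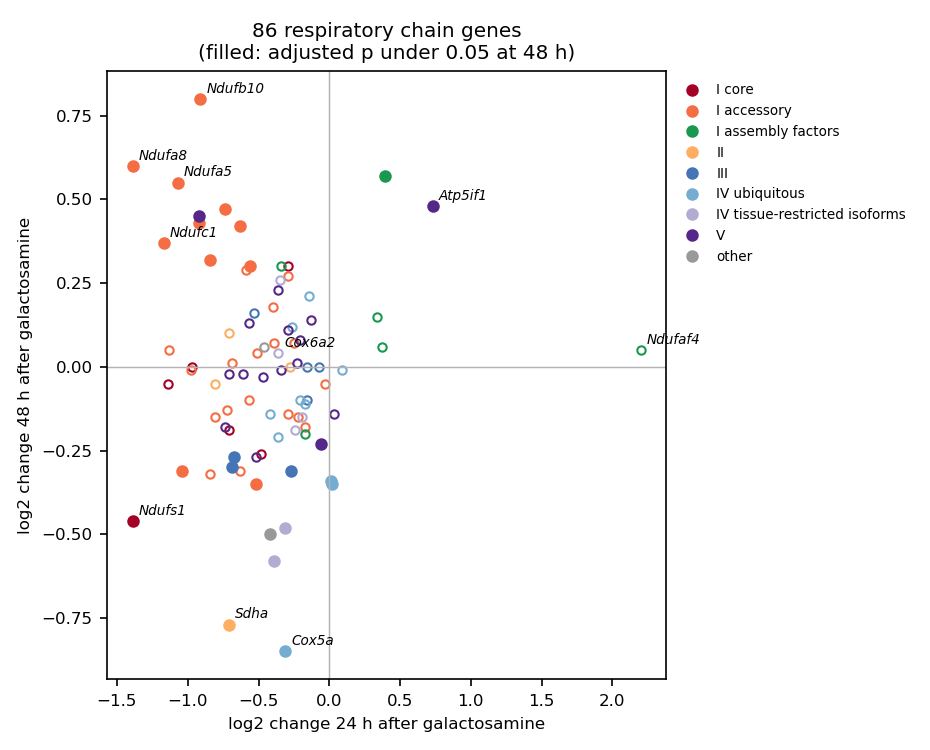
Log2 change from vehicle at 24 h (horizontal) against that at 48 h (vertical) after galactosamine for the 86 members, 1 point per gene, coloured by complex and filled where called at 48 h. Most points lie left of 0 and spread around 0 vertically; Ndufa8 and Ndufb10 lie low at 24 h and high at 48 h, Sdha and Ndufs1 lie low at both times, and Ndufaf4 stands alone at 2.20 at 24 h.

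At 8 d after galactosamine alone limma called 0 members higher and 0 lower (0.00703% and 0.0281% of all genes were called). The changes ran from -0.26 to 0.16 with a median of -0.01, and 2 members had an unadjusted p under 0.05, beside 846 of all genes. These were Cox7b2, which is below background, and Uqcrfs1 (-0.21, adjusted p = 0.635). The genes that had moved most were near vehicle: Ndufs1 stood at 9.40, 9.35 and 9.51, and Ndufaf4 at 8.41, 8.30 and 8.14 beside 8.40, 8.36 and 8.36 in the 8 d vehicle rats. With 3 rats a group, smaller differences than these may go uncalled. With all vehicle rats as controls 2 members were called, beside 320 higher and 398 lower of all 14217 genes.

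In the first 3 doses of nevirapine few members were called, and their main direction differed between the times. After the first dose (3 h) 2 rose (2.33%, against 7.59% of all genes) and 7 fell (8.14%, against 7.48%), with a median of -0.07. The nevirapine rats were here 3 h from their oral dose and the vehicle rats 5 h from theirs, so drug and dose timing differ together. The members that rose were Ndufaf4 (8.42, 8.92 and 8.99 against 8.15, 7.96 and 7.73; 0.83 ± 0.19, adjusted p = 0.00203) and Uqcrc2 (0.31 ± 0.10, adjusted p = 0.0283). The largest falls were of Atp5f1d (-0.35 ± 0.09, adjusted p = 0.00692) and of Ndufs7, the core subunit next to the quinone site (-0.34 ± 0.10, adjusted p = 0.0126). This count of 9 fell to 2 without rat 31, to 3 without rat 32 and to 4 without rat 1, rat 2 or rat 3.

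After the second dose (24 h) limma called 0 members higher (against 4.55% of all genes) and 10 lower (11.6%, against 6.63%), with a median of -0.12 and 30 members (34.9%, against 23.2% of all genes) at an unadjusted p under 0.05 in either direction. The largest falls were of Ndufs3 (9.78, 9.76 and 9.72 against 10.26, 10.36 and 10.08; -0.48 ± 0.12, adjusted p = 0.0048) and Sdhd (10.75, 10.80 and 10.91 against 11.40, 11.27 and 11.15; -0.45 ± 0.10, adjusted p = 0.0013). Both genes had no overlap with vehicle, and Ndufaf3 (-0.43 ± 0.14, adjusted p = 0.0313) and Ndufa8 (-0.42 ± 0.12, adjusted p = 0.0126) followed. The count of 10 was 5 without rat 37, 4 without rat 38, 6 without rat 39, 2 without rat 4, 3 without rat 5 and 16 without rat 6. After the third dose (48 h) 8 rose (9.30%, against 11.0%) and 1 fell (1.16%, against 6.44%), with a median of 0.05. Ndufaf4 (8.06, 8.23 and 8.29 against 7.58, 7.55 and 7.32; 0.71 ± 0.19, adjusted p = 0.00765) was again higher. So was Ndufaf7, a methyltransferase that acts on a core subunit during assembly (0.64 ± 0.17, adjusted p = 0.00991). The fall was that of Cox4i1 (-0.27 ± 0.08, adjusted p = 0.0123). Without rat 12 this count was 5. At 48 h the GAPDH difference was 0.86 in rat 40, beside 0.01 and 0.10 in the other nevirapine rats and an average of 0.613 in vehicle. Rat 40 also had the highest member median of its group, 0.11 beside 0.00 and -0.02. The part of RNA integrity here was not tested.

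At 15 d of nevirapine a shallow fall from the 15 d vehicle rats was spread over all 5 complexes. Of the 86, 26 fell (30.2%, against 8.79% of all genes) and 1 rose (1.16%, against 5.13%), with a median of -0.21 beside -0.04 for all genes, and none of the 27 overlapped the 15 d vehicle rats, nor did 99.5% of all genes called. Among genes with a mean over 10 the median was -0.05, with 15.2% lower, and among the 59 bright members it was -0.23, with 22 lower. Complex I gave 15 of its 35 subunits, complex IV 4 of 10 common subunits, complex V 4 of 16, complex III 2 of 7 and complex II 1 of 4. Ndufs7 stood at 10.93, 10.81 and 10.83 in the 15 d vehicle rats and at 10.16, 9.99 and 10.14 in the nevirapine rats, 1.70-fold lower (-0.76 ± 0.10, adjusted p = 9.47e-07). Its neighbour in the complex, the iron-sulfur subunit Ndufs8, went from 9.46, 9.45 and 9.47 to 8.78, 8.81 and 8.88 (-0.64 ± 0.12, adjusted p = 0.00035). The accessory subunits Ndufb8 (-0.61 ± 0.14, adjusted p = 0.00245) and Ndufa7 (10.85, 10.78 and 10.76 to 10.22, 10.12 and 10.23; -0.60 ± 0.09, adjusted p = 1.92e-05) had falls of like size. The rise was that of Cox5a, from 5.99, 5.83 and 5.69 to 6.35, 6.41 and 6.37 (0.54 ± 0.16, adjusted p = 0.0154).

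At 15 d the largest falls outside complex I were smaller than those of Ndufs7 and Ndufs8, but most medians were alike. The median was -0.24 for complex I subunits and -0.14 for complex II. It was -0.26 for complex III, -0.23 for the common subunits of complex IV and -0.21 for complex V. Sdhb, the iron-sulfur subunit of complex II, fell by 0.43 ± 0.09 on the log2 scale (adjusted p = 0.00162), and Uqcrc1, a core protein of complex III, by 0.44 ± 0.09 (adjusted p = 0.000544). In complex IV the largest were Cox4i1 (12.15, 12.07 and 12.12 to 11.77, 11.69 and 11.71; -0.39 ± 0.08, adjusted p = 0.000436) and Cox8a, its smallest subunit (12.04, 12.05 and 12.01 to 11.69, 11.62 and 11.64; -0.38 ± 0.10, adjusted p = 0.00575). In complex V they were Atp5f1d (-0.59 ± 0.09, adjusted p = 2.15e-05) and Atp5mg, a membrane subunit (-0.44 ± 0.10, adjusted p = 0.00357). The choice of vehicle group sets much of this result: against the 8 d vehicle rats 8 members were lower and none higher, with a median of -0.09. Of all 14217 genes, 535 were lower and 314 higher against those rats. Ndufs7 stood at 10.58, 10.44 and 10.56 in those rats and was still lower (-0.43, adjusted p = 0.00449). So were Ndufb8 (-0.53, adjusted p = 0.0177) and Cox4i1 (-0.37, adjusted p = 0.00211). The other changes named above for nevirapine at 15 d lost their calls. These were Ndufs8 (-0.25, adjusted p = 0.248), Ndufa7 (-0.12, 0.515), Sdhb (-0.15, 0.387) and Uqcrc1 (-0.16, 0.329). Also lost were Cox8a (-0.09, 0.671), Atp5f1d (-0.28, 0.0559), Atp5mg (-0.13, 0.526) and Cox5a (0.29, 0.304). A fit of the 15 d groups alone called 46 members in place of 27. Calls over all 14217 genes rose as well, to 1601 higher and 2698 lower in place of 729 and 1249. Hepatocyte markers averaged 12.43 to 12.49 in the nevirapine and 12.65 to 12.74 in the vehicle rats at 15 d, with 1 of 9 called lower, and the GAPDH difference averaged 0.202 and 0.087. Their part was not tested.

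When galactosamine followed 7 days of nevirapine, the 3 h liver differed from vehicle in 3 members that rose (3.49%, against 15.2% of all genes) and 12 that fell (14%, against 17.4%), with a median of -0.10. The 3 that rose were Atp5if1 (0.83 ± 0.16, adjusted p = 0.000124), the assembly factor Ndufaf1 (0.41 ± 0.14, adjusted p = 0.02) and Uqcrc2 (0.33 ± 0.10, adjusted p = 0.0103). The largest falls were of Atp5f1d (-0.52 ± 0.09, adjusted p = 2.16e-05), Atp5me, a membrane subunit of ATP synthase (-0.47 ± 0.11, adjusted p = 0.00123), and Ndufs7 (10.42, 10.49 and 10.09 against 10.78, 10.63 and 10.84; -0.42 ± 0.10, adjusted p = 0.000804). Rat 63, whose member median was -0.29 beside 0.03 and -0.02 in the other rats of its group, was the lowest of the 3 for Ndufs7. Without rat 1 the count of 15 was 9.

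At 24 h of the combination 40 members fell (46.5%, against 16% of all genes) and 3 rose (3.49%, against 20.7%), with a median of -0.24 beside -0.01 for all genes, and 35 of the 40 did not overlap vehicle (40.7% of members, against 14.7% of all genes; of all genes called lower, 91.9% did not overlap). Genes with a mean over 10 had a median of -0.15 with 38.5% lower, and the 59 bright members had -0.25 with 30 lower. Complex I gave 23 of 35 subunits, with a median of -0.44, complex II 3 of 4, complex III 4 of 7, complex V 7 of 16 and the common subunits of complex IV 1 of 10. The largest falls were of Ndufv2, which holds an iron-sulfur cluster at the NADH end (11.04, 11.10 and 10.74 to 10.32, 10.23 and 9.90; -0.81 ± 0.11, adjusted p = 3.16e-07), and the accessory subunits Ndufa2 (10.44, 10.50 and 10.18 to 9.34, 9.88 and 9.63; -0.76 ± 0.12, adjusted p = 3.07e-06) and Ndufa8 (to 9.55, 9.50 and 9.20; -0.73 ± 0.12, adjusted p = 3.21e-06). No combination rat reached the vehicle range in any of these 3 genes. Cox5a, read by a dim probe set, was the 1 common complex IV subunit that fell (-0.49 ± 0.16). Among the tissue isoforms of complex IV, Cox7a1, which is below background, was called lower (-0.35). The 3 that rose were Ndufaf4 (9.25, 9.41 and 9.90; 1.66 ± 0.19, adjusted p = 4.09e-09, 3.15-fold), Ndufaf8 (0.36 ± 0.13, adjusted p = 0.0261) and Atp5if1 (8.79, 8.57 and 8.78; 0.89 ± 0.16, adjusted p = 2.43e-05). Macrophage markers were called higher for 8 of 9, with rat means of 8.32 to 8.65, and the GAPDH difference averaged 0.235 against 0.470 in vehicle. Their part was not tested.

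At 48 h of the combination 4 members rose (4.65%, against 10.2% of all genes) and 8 fell (9.30%, against 5.77%), with a median of -0.04. Those that rose were Ndufaf4 (8.67, 8.21 and 7.78 against 7.58, 7.55 and 7.32; 0.74 ± 0.19, adjusted p = 0.00503), Atp5if1 (0.62 ± 0.16, adjusted p = 0.0064), Atp5pf (0.37 ± 0.10, adjusted p = 0.0111) and Ndufab1, the acyl carrier protein of complex I (0.33 ± 0.11, adjusted p = 0.0364). The largest falls were of Ndufa2 (-0.49 ± 0.12, adjusted p = 0.00421) and Ndufa9 (-0.39 ± 0.11, adjusted p = 0.00887). This count of 12 was 1 without rat 70, 5 without rat 11 and 7 without rat 10 or rat 12, and a fit of these groups alone called 0. From 24 h to 48 h, tested as the difference of the differences, 23 members rose (26.7%, against 7.30%) and 1 fell (1.16%, against 7.33%), with a median of 0.19. Ndufa8 (0.85 ± 0.16, adjusted p = 0.000362) and Ndufab1 (0.83 ± 0.16) rose most, and Ndufaf4 fell (-0.92 ± 0.26, adjusted p = 0.0143). Cyclic loess gave 18 higher and 6 lower here, and a fit of these groups alone called 3.

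At 8 d of the combination, the time at which the study looked for fibrosis, 46 members were lower (53.5%, against 11.7% of all genes) and 1 was higher (1.16%, against 13.1%). The median was -0.29 beside -0.02 for all genes, and none of the 47 overlapped the 15 d vehicle rats, nor did 97.1% of all genes called. Of the 46, 43 were above background. Bright genes as a class moved little: among the 810 with a mean over 10 the median was -0.04 with 19.0% lower, while among the 59 bright members it was -0.31 with 37 lower. Against the 15 d vehicle rats the falls reached every complex. They took in 22 of 35 complex I subunits (median -0.38), 5 of 7 in complex III (-0.31), 7 of 10 common subunits of complex IV (-0.34), 8 of 16 in complex V (-0.23) and 1 of 4 in complex II.

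In complex I the largest falls were of Ndufs7 (10.10, 9.97 and 9.99 against 10.93, 10.81 and 10.83; -0.84 ± 0.10, adjusted p = 5.3e-08, 1.79-fold lower) and Ndufa6, an accessory subunit that binds the acyl carrier protein (10.84, 10.89 and 10.74 against 11.66, 11.53 and 11.60; -0.77 ± 0.12, adjusted p = 1.3e-05, 1.71-fold). Ndufb11 (10.19, 10.30 and 10.39 against 11.00, 10.98 and 10.94; -0.68 ± 0.11, adjusted p = 1.76e-05) and Ndufs3 (9.61, 9.77 and 9.85 against 10.33, 10.27 and 10.25; -0.54 ± 0.12, adjusted p = 0.000722) came next by subunit class. All 3 rats were below all 3 vehicle rats in each of these 4 genes. Downstream, Sdhb fell by 0.45 ± 0.09 (adjusted p = 0.000486), and Uqcrq, a small subunit of complex III, by 0.44 ± 0.09 (adjusted p = 0.000341). Cox8a stood at 11.47, 11.52 and 11.59 against 12.04, 12.05 and 12.01 (-0.51 ± 0.10, adjusted p = 0.000169), and Atp5mg at 11.23, 11.19 and 11.37 against 11.94, 11.87 and 11.93 (-0.65 ± 0.10, adjusted p = 1.89e-05). Ndufaf4 was the 1 member that rose (8.25, 8.89 and 8.58 against 7.66, 8.21 and 7.92; 0.64 ± 0.19, adjusted p = 0.00993).

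Against the 8 d vehicle rats in place of the 15 d rats, 11 members were lower and 2 higher at 8 d of the combination, with a median of -0.17. Of all 14217 genes, 637 were lower and 1126 higher with this control. Ndufs7 (-0.50, adjusted p = 0.000323), Ndufa6 (-0.53, adjusted p = 0.0028), Ndufb11 and Atp5mg were still lower, and Ndufaf4 was not called (0.20, adjusted p = 0.55). The other falls named above lost their calls: Ndufs3 (-0.27, adjusted p = 0.128), Sdhb (-0.18, adjusted p = 0.235), Uqcrq (-0.21, adjusted p = 0.129) and Cox8a (-0.22, adjusted p = 0.146). No fall named above in complex II, III or IV kept its call. Hepatocyte markers averaged 12.45 to 12.50 in the combination rats against 12.65 to 12.74 in the 15 d vehicle rats, with 2 of 9 called lower. Stellate cell and myofibroblast markers were called higher for 6 of 9, with a summed linear signal of 5428 to 7040 against 1602 to 2181, and macrophage markers for 5 of 9, at 3496 to 5967 against 2704 to 3032. Of all genes, 13.1% were called higher against the 15 d vehicle rats. None of the stellate list was below background in either group. In rat 73, the combination rat with the lowest member median (-0.32), the GAPDH difference was 0.334, beside 0.049 and 0.076 in its group. The part of the markers and of RNA integrity in the falls was not tested.

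The treatments were then compared with one another. Galactosamine with and without nevirapine share their vehicle rats at 3 h, 24 h and 48 h, so the drug groups were set directly against each other. At 3 h the combination was lower in 6 members (6.98%, against 7.06% of all genes) and higher in 0 (against 10.6%), with a median of -0.14 and 25 members (29.1%, against 30.9% of all genes) at an unadjusted limma p under 0.05 in either direction, led by Ndufa6 (-0.37), Ndufb11 (-0.35), Ndufs3 (-0.33) and Ndufs7 (-0.32 ± 0.10, adjusted p = 0.0171). This count was 0 without rat 63, 1 without rat 18, 2 without rat 17, 3 without rat 16, 10 without rat 62 and 11 without rat 61, and 0 in a fit of these groups alone.

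At 24 h the combination was higher than galactosamine alone in 26 members (30.2%, against 16.2% of all genes) and lower in 1 (1.16%, against 21.6%), with a median of 0.17, but cyclic loess gave 12 higher and 15 lower with a median of -0.02. Among genes with a mean over 10, 42.1% were higher, with a median of 0.22. Complex I gave 19 of 35 subunits, complex II 3 of 4 and complex V 2 of 16. Ndufs1 stood at 9.08, 9.12 and 8.80 in the combination and at 8.26, 8.05 and 8.46 in galactosamine alone (0.74 ± 0.14, adjusted p = 2.81e-05). Ndufb3 stood at 10.85, 11.03 and 10.87 against 10.09, 10.53 and 10.06 (0.69 ± 0.11, adjusted p = 2.57e-06). Ndufa8 (0.66 ± 0.12, adjusted p = 1.42e-05), Atp5pf (0.66 ± 0.10, adjusted p = 2.64e-06) and Sdha (0.54 ± 0.10, adjusted p = 3.15e-05) were likewise nearer to vehicle in the combination. The 1 lower member was Ndufaf4 (-0.54 ± 0.19, adjusted p = 0.0194). Its smaller rise from the shared vehicle rats is the same difference stated another way. The count of 27 was 16 without rat 69, 17 without rat 24 and 46 without rat 23, and 8 in a fit of these groups alone.

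At 48 h 8 members were higher in the combination (9.30%, against 12.1% of all genes) and 5 lower (5.81%, against 17.1%), with a median of -0.03. The higher ones included Ndufaf4 (0.69 ± 0.21, adjusted p = 0.0115), Ndufs1 (0.60 ± 0.15, adjusted p = 0.00243) and Sdha (10.22, 10.57 and 10.32 against 9.82 and 9.99; 0.47 ± 0.11, adjusted p = 0.00137). Ndufs1 and Sdha were among the members still lower than vehicle after galactosamine alone, as were Cox5a (0.50 ± 0.17) and Uqcrfs1 (0.27), also higher in the combination. The lower ones were Ndufb10 (-0.68 ± 0.16, adjusted p = 0.000806), Ndufa8 (10.12, 10.03 and 9.89 against 10.56 and 10.42; -0.48 ± 0.13, adjusted p = 0.00492), Ndufc1 (-0.39), Ndufb4 (-0.35) and Cox5b (-0.33). The first 4 had been called higher than vehicle in the galactosamine rats, and Cox5b had not (0.12, adjusted p = 0.437). Without rat 26 the count of 13 was 3 and without rat 27 it was 8, a fit of these groups alone called 3, and cyclic loess gave 8 higher and 10 lower.

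At 8 d the combination and galactosamine alone have different vehicle groups, so the difference of their differences was tested. The combination's change was the lower in 23 members (26.7%, against 5.34% of all genes) and the higher in 1 (1.16%, against 5.87%), with a median of -0.29. Among genes with a mean over 10 the median was -0.02, and among the 59 bright members it was -0.31. The largest differences were of Ndufs7 (-0.89 ± 0.14, adjusted p = 4.77e-05), Ndufa11, a membrane-arm subunit (-0.76 ± 0.18, adjusted p = 0.00448), and Ndufa6 (-0.72 ± 0.17, adjusted p = 0.00537), with Uqcrq (-0.57 ± 0.13, adjusted p = 0.00291) the largest in complex III. The 1 higher member was Ndufaf1 (0.60 ± 0.19, adjusted p = 0.0398). Part of this rests on the vehicle groups: with the treated rats compared directly, 9 members were lower and 2 higher, with a median of -0.16. Of all 14217 genes, 800 were lower and 1148 higher in that direct comparison. The count of 24 was 14 without rat 84, rat 13 or rat100, and 15 without rat103 (galactosamine 8 d), while a fit of these groups alone called 38. Over all genes that fit called 1729 higher and 1396 lower, in place of 835 and 759.

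The 8 d combination rats were also set directly against the 15 d nevirapine rats, which had reached the same oral dose. Only Cox6b2 and Cox7a1, both below background, were called, 1 in each direction (1.16% each, against 9.31% and 3.09% of all genes), with a median of -0.06 over the members. Ndufs7 differed by -0.07, with a 95% interval from -0.27 to 0.12, Sdhb by -0.02 (-0.22 to 0.17) and Cox8a by -0.13 (-0.32 to 0.07). For Ndufa6 the difference was -0.24 (-0.48 to 0.01) and for Atp5mg -0.21 (-0.42 to 0.00), so these intervals reach further falls of those sizes. The count of 2 was 1 without rat 73, rat 84, rat 43 or rat 45 and 0 without rat 87 or rat 44, and cyclic loess gave 1 higher and 4 lower. Nevirapine at 15 d and the combination at 8 d share the 15 d vehicle rats, so their lists of lower members are given side by side and not as an overlap. Ndufs7 was -0.76 and -0.84, Ndufa6 -0.54 and -0.77, Ndufb11 -0.57 and -0.68, Atp5mg -0.44 and -0.65, Cox8a -0.38 and -0.51 and Sdhb -0.43 and -0.45.

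The falls at 24 h of galactosamine and at 8 d of the combination, which share no rats, were set side by side. Of the 60 lower at 24 h, 31 (51.7%) were among the 46 lower at 8 d (67.4% of those, near the 69.8% of all members lower at 24 h), and the Pearson correlation of the 86 changes was 0.36, given as a description across genes of 1 pathway. For 24 h of galactosamine and 15 d of nevirapine, 17 were lower in both (28.3% of 60 and 65.4% of 26, again near 69.8%), with a correlation of 0.25. Ndufs1, which fell most at 24 h, was not among the leading genes at 8 d, and Cox8a and Cox4i1 were low after long nevirapine while Cox4i1 was not called at 24 h of galactosamine.

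**Figure D5:**
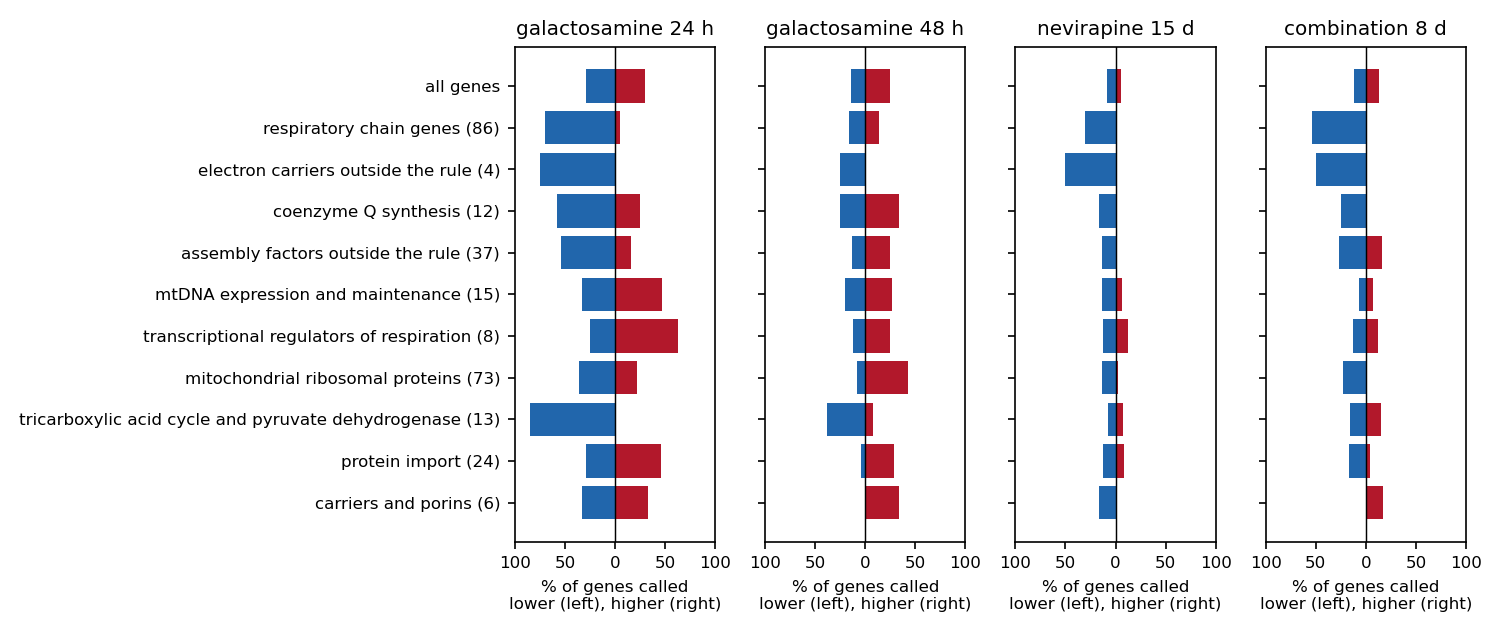
Share of each gene list called higher (red, right of 0) and lower (blue, left of 0) in 4 comparisons with vehicle, for the respiratory chain members and the other lists of the pathway, with the share of all genes beside them. The respiratory chain bar reaches 69.8% lower at 24 h of galactosamine and 53.5% lower at 8 d of the combination.

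Genes that feed or assist the chain are given by list, to be read against the shares of all genes called higher and lower: 30.2% and 28.5% at 24 h and 24.9% and 14.5% at 48 h of galactosamine, 20.7% and 16% at 24 h of the combination, 5.13% and 8.79% at 15 d of nevirapine and 13.1% and 11.7% at 8 d of the combination. Electron carriers were lower at 24 h of galactosamine in 3 of 4 measured, led by Etfdh and Etfb, which pass electrons from fatty acid oxidation to coenzyme Q (-3.27 ± 0.16, adjusted p = 2.87e-19, and -2.52 ± 0.12, adjusted p = 3.99e-20). At 24 h of the combination all 4 were lower, with Etfdh at -1.31 and Etfb at -1.59. At 15 d of nevirapine and 8 d of the combination Etfb (-0.44 and -0.46) and Cyc1, the cytochrome c1 subunit of complex III (-0.38 and -0.39), were lower. Citric acid cycle and pyruvate dehydrogenase genes fell in 11 of 13 at 24 h of galactosamine and rose in none, led by the succinyl-CoA ligase subunits Sucla2 (-1.30 ± 0.12) and Suclg1 (-1.29 ± 0.10). At 48 h 5 of 13 were still lower (Sucla2 -0.82, Suclg2 -0.78) and Mdh2 was higher (0.53). At 15 d of nevirapine 1 was lower (Ogdh, -0.48) and 1 higher (Pdha1, 0.37), and at 8 d of the combination 2 were lower and 2 higher (Dld 0.50, Cs 0.38).

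Coenzyme Q genes were lower in 7 of 12 (58.3%, against 28.5% of all genes) and higher in 3 (25%, against 30.2%) at 24 h of galactosamine. Coq8a, a kinase-like protein of the synthesis complex (-2.48 ± 0.23), and Coq10a (-2.01 ± 0.18) fell while Coq10b (2.08 ± 0.26), which like Coq10a binds coenzyme Q, rose. The combination gave Coq10a -2.01 and Coq10b 1.22 at 24 h and Coq10a -0.69 at 8 d. Assembly factors outside the Nduf names were lower in 20 of 37 (54.1%, against 28.5%) and higher in 6 (16.2%, against 30.2%) at 24 h of galactosamine, and 15 and 3 at 24 h of the combination. The largest falls were of Ecsit, a complex I assembly factor (-1.39 ± 0.11), and Nubpl, which delivers iron-sulfur clusters to complex I (-1.21). The largest rise was of Sdhaf1, which helps to place iron-sulfur clusters in complex II (1.38 ± 0.15). At 8 d of the combination 10 were lower (27%, against 11.7%; Cox14 -0.68, Coa7 -0.56) and 6 higher (16.2%, against 13.1%; Acad9 0.75, Nubpl 0.66), and at 15 d of nevirapine 5 were lower (Oxa1l -0.69, Cox14 -0.55) and none higher. At 8 d of galactosamine alone none of these lists held a called gene, beside 0.00703% and 0.0281% of all genes.

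Regulators of nuclear respiratory genes moved in both directions. At 24 h of galactosamine 5 of 8 were higher (62.5%, against 30.2% of all genes) and 2 lower (25%, against 28.5%). Ppargc1a, the co-activator PGC-1 alpha, was at 4.02, below background, against 6.58 in vehicle, at least 4.62-fold lower (adjusted p = 9.06e-08), and Ppargc1b, its relative PGC-1 beta, fell by 1.70 ± 0.21. Pprc1, another member of that family, known from dividing cells (3.98 ± 0.23, adjusted p = 1.77e-17), and Yy1 (1.37 ± 0.15) rose. At 48 h Esrra, which encodes ERR alpha (1.65 ± 0.23), and Pprc1 (1.60) were higher and Ppargc1b (-1.35) lower. In the combination at 24 h Ppargc1a was -1.95 and Pprc1 2.06. Ppargc1b was -0.80 at 15 d of nevirapine and -1.01 at 8 d of the combination, and Gabpa, the ETS factor, was 0.68 and 0.85. A tie between these genes and the members was not tested.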

How the data were processed

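Total RNA from 50 livers was labelled as biotinylated cRNA and hybridised to Affymetrix rat arrays, 1 per rat, per the labels. The authors deposited one log2 signal per probe set and array, and array medians were close to equal; the submitters' processing notes name RMA and limma, with no version. Of 31099 probe sets, 20826 have 1 gene symbol in the platform annotation, 436 have several and were left out (7 of them list a respiratory chain gene), and 9831 have none. Each gene was read by its brightest probe set, giving 14217 genes. The groups were taken from the labels, and the rat numbers pair no rats.

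All 17 groups were fitted together with limma 3.58.1 (lmFit and eBayes, R 4.3.3), in 19 contrasts, with Benjamini-Hochberg adjustment over 14217 genes. The fitting script was checked on simulated data. Tables, the motif search and figures used Python 3.11.15, pandas 2.3.3, numpy 2.4.6, scipy 1.17.1 and matplotlib 3.10.9. Of each complex, the text names the 2 called members with the largest change in each direction, all where 5 or fewer were called, and a fixed set given rat by rat; from each further list it names the 2 called genes with the largest change in each direction. Other members named only beside these were picked after their values were seen. The members, lists, tests and named-gene rule were chosen with earlier results of these data known. Alternatives were a fit of the compared groups alone, cyclic loess, leaving out the dimmest 40% of genes, the mean of a gene's probe sets, a trended and robust prior, all vehicle rats as controls, the 8 d vehicle rats as controls for the combination at 8 d, and each rat left out. Added after the data were seen were the GAPDH covariate, the 8 d vehicle rats as controls for nevirapine at 15 d, and the 8 d groups compared directly. Promoter windows are from RefSeq (GRCr8). RMA pulls the values of arrays onto one distribution, which can shift bright genes as a class. The number of rats limits the precision.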

Additional observations from a re-analysis of the deposited data

Results flagged for a closer look

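Each value here is a count of members, out of 86, for which 2 treatments or 2 times differed in a direct test of the difference (limma, adjusted p under 0.05). The combination differed from galactosamine alone in 6 members at 3 h (6.98%, against 17.7% of all genes), 27 at 24 h (31.4%, against 37.8%) and 13 at 48 h (15.1%, against 29.3%). At 8 d the 2 changes from vehicle differed in 24 (27.9%, against 11.2%). The combination at 8 d differed from nevirapine at 15 d in 2 (2.33%, against 12.4%). The change from vehicle at 48 h differed from that at 24 h in 42 members after galactosamine (48.8%, against 36.4%) and in 24 in the combination (27.9%, against 14.6%). The balance of higher and lower calls between the combination and galactosamine alone at 24 h changed with the scaling. Cyclic loess gave 12 higher and 15 lower in place of 26 and 1.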

How the results depend on the processing

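Every value below is a count of members called, unless said otherwise. With a fit of the compared groups alone, the counts were 41 (in place of 64) for galactosamine at 24 h, 1 (9), 3 (10) and 46 (27) for nevirapine at 3 h, 24 h and 15 d, and 3 (15) and 0 (12) for the combination at 3 h and 48 h. Over all 14217 genes that fit called 3825 higher and 3155 lower (in place of 4299 and 4058) for galactosamine at 24 h. For nevirapine it called 746 and 533 (1079 and 1063) at 3 h, 646 and 955 (647 and 942) at 24 h and 1601 and 2698 (729 and 1249) at 15 d. For the combination it called 1302 and 836 (2156 and 2471) at 3 h and 198 and 176 (1445 and 820) at 48 h. Between the combination and galactosamine the member counts were 0 (6), 8 (27) and 3 (13) at 3 h, 24 h and 48 h, 38 (24) for the 8 d difference, and 3 (24) for the combination's 48 h less 24 h change. All-gene calls there were 573 higher and 184 lower (in place of 1514 and 1004), 987 and 1752 (2298 and 3073) and 464 and 1308 (1726 and 2437) at 3 h, 24 h and 48 h. For the 8 d difference all-gene calls were 1729 and 1396 (835 and 759). For the combination's 48 h less 24 h change they were 436 and 394 (1038 and 1042). With all vehicle rats as controls the member counts were 13 (8) and 2 (0) for galactosamine at 3 h and 8 d and 4 (10) and 4 (9) for nevirapine at 24 h and 48 h. All-gene calls with those controls were 2602 higher and 2957 lower (in place of 2123 and 2557) and 320 and 398 (1 and 4) for galactosamine. For nevirapine they were 718 and 715 (647 and 942) and 876 and 520 (1557 and 915). The 8 d vehicle rats as controls gave 8 (27) for nevirapine at 15 d and 13 (47) for the combination at 8 d, and the 8 d treated rats compared directly gave 11 (24). For the combination at 8 d against nevirapine at 15 d, cyclic loess gave 5 (2) and leaving out the dimmest 40% of genes 0. Leaving out 1 rat at a time gave 5 to 6 for galactosamine at 3 h, 48 to 72 at 24 h, 12 to 20 at 48 h and 0 at 8 d. It gave 2 to 10, 2 to 16, 5 to 9 and 21 to 27 for nevirapine at 3 h, 24 h, 48 h and 15 d, and 9 to 18, 32 to 47, 1 to 12 and 35 to 45 for the combination at 3 h, 24 h, 48 h and 8 d. Between the combination and galactosamine it gave 0 to 11, 16 to 46, 3 to 13 and 14 to 21 at 3 h, 24 h, 48 h and 8 d, against nevirapine 0 to 1, and 35 to 53 and 17 to 29 for the 48 h less 24 h changes of galactosamine and the combination. Fits with fewer rats or groups have fewer residual degrees of freedom, and with galactosamine at 48 h down to 1 rat, that rat is assumed to vary like the other groups. The 199 named values included 26 for nevirapine at 15 d and the combination at 8 d. Of these 26, 8 kept their call with the 8 d vehicle rats as controls. Of the 12 for the 8 d difference, 4 kept theirs with the 8 d treated rats compared directly. Of the 132 for comparisons with vehicle, 30 lost their call and 1 changed sign with all vehicle rats as controls. Of all 199, 118 kept their call in a fit of the compared groups alone and 176 with cyclic loess. With the mean of probe sets 187 named values kept it, with the GAPDH covariate 179 and with a trended and robust prior 199. Those that changed sign were Cox7b at 24 h of galactosamine with cyclic loess (0.0363), Ndufaf3 there with all vehicle rats (0.0001) and Atp5if1 at 48 h with the mean of its probe sets (-0.061), and the cause was not tested. No paired analysis was possible because the groups share no replicate number. Signal limits the 6 members below background in every group.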

Other observations

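Genes that make the mitochondrial part of the chain from the organelle's own DNA, and that bring nuclear-encoded subunits in, were measured on the same arrays. Of 73 mitochondrial ribosomal protein genes, 26 were lower (35.6%, against 28.5% of all genes) and 16 higher (21.9%, against 30.2%) at 24 h of galactosamine (Mrpl20 -1.72, Mrpl14 -1.51, Mrps2 1.79, Mrpl47 1.63). At 48 h 31 were higher (against 24.9% of all genes) and 6 lower (against 14.5%; Mrps30 1.01, Mrpl12 0.97). At 8 d of the combination 17 were lower and 1 higher, against 11.7% and 13.1% of all genes (Mrpl34 -0.62, Mrpl57 -0.57, Mrpl51 0.65), and at 15 d of nevirapine 10 were lower and 2 higher, against 8.79% and 5.13%. Of 15 genes that copy or transcribe mitochondrial DNA, 7 were higher (46.7%, against 30.2% of all genes) and 5 lower (33.3%, against 28.5%) at 24 h of galactosamine, with Tfb1m (1.09 ± 0.14) and Tefm (1.00 ± 0.12) the largest rises and Polg2 (-2.06 ± 0.23) and Lrpprc (-1.31 ± 0.13) the largest falls. Polrmt, the mitochondrial RNA polymerase, was higher at 48 h (1.24 ± 0.17). Polg, the DNA polymerase, was lower at 15 d of nevirapine (-0.73) and at 8 d of the combination (-0.76).

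Of 24 protein import genes, 11 were higher (45.8%, against 30.2% of all genes) and 7 lower (29.2%, against 28.5%) at 24 h of galactosamine. Tomm20, an outer membrane receptor (1.11 ± 0.10), and Tomm40, the import pore (0.99), rose, while Timm21 (-1.29) and Timm17b (-1.13) of the inner membrane translocase fell. Tomm40 reached 1.45 at 48 h. The adenine nucleotide carrier Slc25a4, known as the muscle and heart form, was higher at 24 h (0.55) and 48 h (1.60) of galactosamine and at 24 h (0.87) and 8 d (0.72) of the combination. At 8 d of galactosamine alone no gene of these lists was called by limma.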
